A study of Mus musculus with 8 samples.

Results

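The libraries described here are 4 whole lungs of wild-type C57BL/6 mice that had received bone marrow of wild-type donors and were then kept for 3 days in hypoxia. They were chosen by their labels alone, as the 4 WT marrow samples among the 8 of the series, and every gene of the deposited tables was taken. The series set them beside lungs of wild-type recipients of marrow that lacks the nNOS, iNOS and eNOS genes (triply n/i/eNOS-/-), which are not described here, and its title asks how nitric oxide synthases of myeloid cells act in hypoxia-induced pulmonary hypertension. All 4 lungs share the transplantation and the hypoxia, and lungs of mice in normal air or without a transplant were not analysed here, so no level below can be read as a response to either. The labels do not give the conditioning of the recipients, the age or sex of the mice, or the share of blood cells that came from the donor. They number the lungs 1 to 4 and do not say whether each number is 1 animal, so the spread given below is that between libraries.

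The mouse lung is built of an airway lining of club and ciliated cells and of alveoli. Alveolar type 2 cells make surfactant there, and the thin type 1 cells and capillary endothelium exchange gas. In hypoxia the small pulmonary arteries constrict and, over days to weeks, their walls thicken. Nitric oxide made by endothelial nitric oxide synthase relaxes these vessels through soluble guanylate cyclase and cGMP, while endothelin constricts them. Marrow transplantation replaces blood-borne cells, among them neutrophils, monocytes and lymphocytes, and over time a part of the macrophages of the lung. RNA of a whole lung mixes all of these cells, so that for every level below a smaller number of cells and less RNA per cell cannot be told apart.

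Of 23284 gene symbols in the tables, 18808 stood above 0 in at least 1 of the 4 libraries and 15800 in all 4, with 16778 to 17621 per library. The read-scale values of a library, which are reads divided by a factor per library and are called scaled reads below, summed to 7862260 to 8235390. At this depth a gene listed at 0 may have stood at up to 2.81 to 2.98 scaled reads, the worth of 3 reads, by counting error alone. Levels between genes were compared on FPKM, fragments divided by transcript length and by library depth. In all 4 libraries 12627 genes reached an FPKM of 1, 8769 reached 5, 820 reached 100 and 65 reached 1000. Across the 13196 genes with a mean FPKM of at least 1, each pair of libraries had a Spearman correlation of 0.978 to 0.989, which describes genes and not replicates.

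Some groups of genes were higher in 1 or 2 libraries than in the others, and each is named here because it touches later values. Genes known from the lining of the large intestine were highest in replicate 2 and next highest in replicate 4. A list of 19 such genes, written after these values were seen, summed to 496 scaled reads in replicate 1, 5926 in replicate 2, 339 in replicate 3 and 1812 in replicate 4. All 19 were highest in replicate 2 and all 19 were next highest in replicate 4. As the genes were picked with the values known, these counts are a description only. They include Cdx1 and Cdx2, the transcription factors of intestinal identity, at 27.2 and 11.2 scaled reads in replicate 2 and at 0 in replicates 1 and 3. A list of 7 genes of the exocrine pancreas, also written afterwards, summed to 1.87 to 4.93 scaled reads. Replicate 3 was highest in most airway secretory and ciliated genes and in genes of heart muscle and of fat. Replicate 1 was highest in genes of the mesothelium that covers the lung and in genes with short transcripts. Replicate 4 was lowest in leukocyte and in cell division genes. Counts of list members that were highest or lowest in a library are to be read against all 9682 genes with a mean of at least 100 scaled reads, of which replicates 1 to 4 were highest in 30.7, 24.4, 17.0 and 27.8% and lowest in 21.8, 28.3, 19.3 and 30.6%. The values are given with each group below, and what part tissue dissection, handling or the animals had in them was not tested.

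Very short genes needed a decision before any share of the total could be given. An FPKM value divides reads by length, and for microRNA and small nucleolar RNA genes that length is about that of a read, so 1 read gave a median of 84.4 FPKM there against 0.0510 FPKM in other genes. Mir762 shows the extreme. It held 0.937 to 2.84 scaled reads per library, yet its FPKM stood at 15482, 7298, 7678 and 22095 in replicates 1 to 4, which would have placed it near the top of the table. Its hairpin in RefSeq, chr7:127708487-127708562 on the plus strand of GRCm38, is 76 bases long where the reads were 75 bases. It is printed here to show how little sequence such a value rests on, with the mature microRNA in capitals, followed by the mature sequences of Mir762 and of the next highest, Mir703 (chr5:98475556-98475664, minus strand), with the seed, bases 2 to 8, in capitals.
Mir762 hairpin: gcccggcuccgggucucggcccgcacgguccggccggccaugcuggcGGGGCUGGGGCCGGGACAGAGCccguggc
mmu-miR-762: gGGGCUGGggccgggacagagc
mmu-miR-703: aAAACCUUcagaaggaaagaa
The seeds of these microRNAs differ. Mir703 stood at 26.2 to 39.7 scaled reads and at a mean FPKM of 2814. The libraries were made from mRNA bound to oligo(dT) beads, so neither value measures the mature microRNA. The 780 symbols of small and ribosomal RNAs were therefore left out of ranks and totals. They held 2.74 to 5.43% of all FPKM in a library and 0.0237 to 0.0403% of the scaled reads.

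A few genes of secretory cells held a large part of the RNA. Scgb1a1, the secretoglobin of airway club cells, stood at an FPKM of 89149, 66123, 83289 and 84455 in replicates 1 to 4. Replicate 2 was the lowest and the other libraries lay close together. This was 12.2% ± 1.05 (SD, n = 4) of all FPKM. The gene lies on chromosome 19 (9083636 to 9087958, GRCm38). Sftpc, the surfactant protein C gene of type 2 cells on chromosome 14 (70520949 to 70524081), followed with 22501, 17664, 19036 and 20625 FPKM, or 3.02% ± 0.175 (SD, n = 4). These genes stood apart from each other and from all below them in every library.

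The next ranks mixed matrix, blood, macrophage and housekeeping genes. Mgp, matrix Gla protein, an inhibitor of calcification, was the next at 9887, 7797, 7720 and 7700 FPKM, with replicate 1 above the other libraries. Tmsb4x, which binds actin monomers, followed with 1.04% of FPKM, and then Beta-s, the older symbol of an adult beta globin gene, with 5426 to 7351 FPKM. Lyz2, the lysozyme of macrophages, neutrophils and type 2 cells, held 0.689% and Eef1a1, a translation factor, 0.563%. Retnla, a secreted resistin-like protein that has also been named hypoxia-induced mitogenic factor, was at rank 8. It stood at 5138, 2360, 3902 and 2357 FPKM. Replicates 1 and 3 were above replicates 2 and 4, and with a CV (SD over mean) of 39.1% it was the most variable gene of the 30 highest. Cbr2, a carbonyl reductase of club cells, and B2m, the light chain of MHC class I, closed the 10 highest.

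Ranks 11 to 30 were held by ribosomal protein genes (Rplp1, Rpl41, Rpl10, Rps12, Rpl39), actins (Actb, Actg1), ferritin chains (Fth1, Ftl1), Sftpb, Ager, Sparc, Tpt1, Ppia, Myl6, Cst3, S100a11, Gpx3, Hbb-b1 and 1 gene known only by a model identifier. Ager, the receptor for advanced glycation end products and a defining gene of type 1 cells, was steady at 1883, 1793, 1753 and 1877 FPKM. Of the 30 highest genes, 27 were among the 30 highest in each of the 4 libraries. The 10 highest genes held 21.3% ± 1.40 (SD, n = 4) of all FPKM, the 100 highest 39.1% ± 1.55, and 233 genes made up 50% of it. Counted in scaled reads and not per length, the 10 highest held 6.89% and the 100 highest 19.9%, and long transcripts moved up: Eef1a1 was at rank 3, Actb at rank 4 and Sparc, a collagen-binding matrix protein, at rank 5, while Rpl39 was at rank 539.

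**Figure D1:**
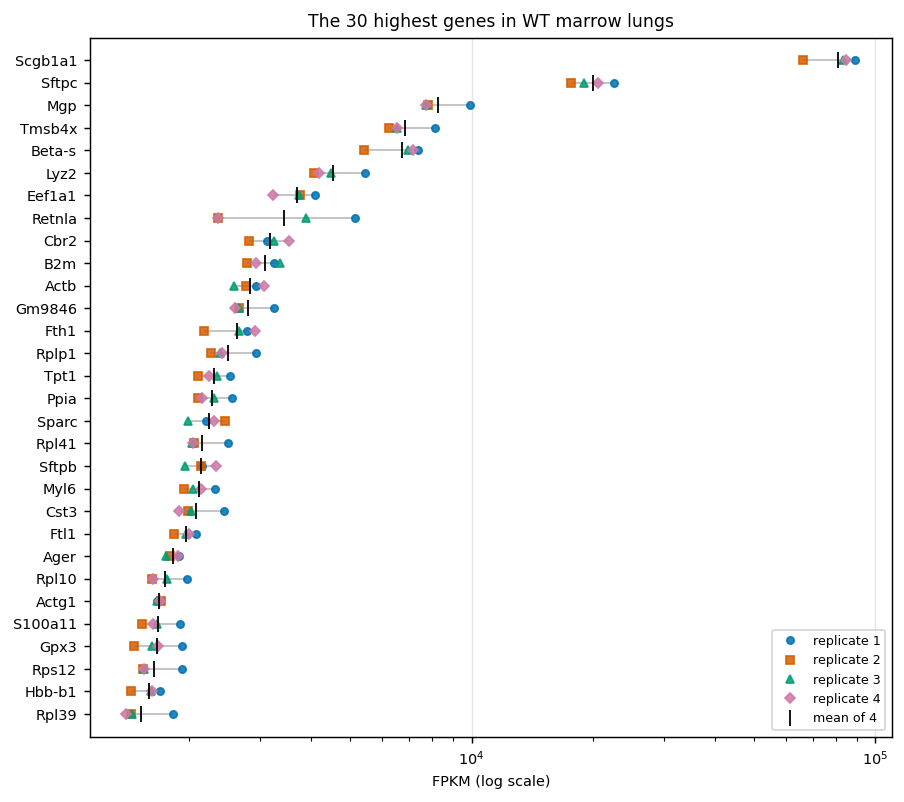
FPKM on a log axis of the 30 genes with the highest mean share, with 1 point for each of the 4 WT marrow lungs, a grey line from the lowest to the highest library and a black tick at the mean. Scgb1a1 and Sftpc stand apart from the rest, and Retnla has the widest span, from 2357 to 5138.

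Marker genes of 40 cell classes, 462 of which are in the tables, together held 23.5% ± 1.31 (SD, n = 4) of all FPKM. Such a share depends on which genes are on a list and on how highly each is transcribed, and it is not a share of cells. Genes of the epithelium led with 18.8, 16.7, 19 and 19.4% in replicates 1 to 4, a mean of 18.5%, of which Scgb1a1 alone gave 12.2 and without which the mean was 6.26%. Erythroid and platelet genes followed at 1.58% (1.40 to 1.71) and leukocyte genes at 1.46% (1.26 to 1.61), and their ranges over the libraries overlapped. Mesenchymal genes held 1.13% (1.10 to 1.17) and endothelial genes 0.759% (0.712 to 0.814), each apart from its neighbours. Long transcripts weigh differently in scaled reads, where epithelial genes held 6.88%, mesenchymal 1.51%, endothelial 1.39%, leukocyte 0.935% and erythroid and platelet genes 0.521%, so the order below the epithelium rests on the scale.

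**Figure D2:**
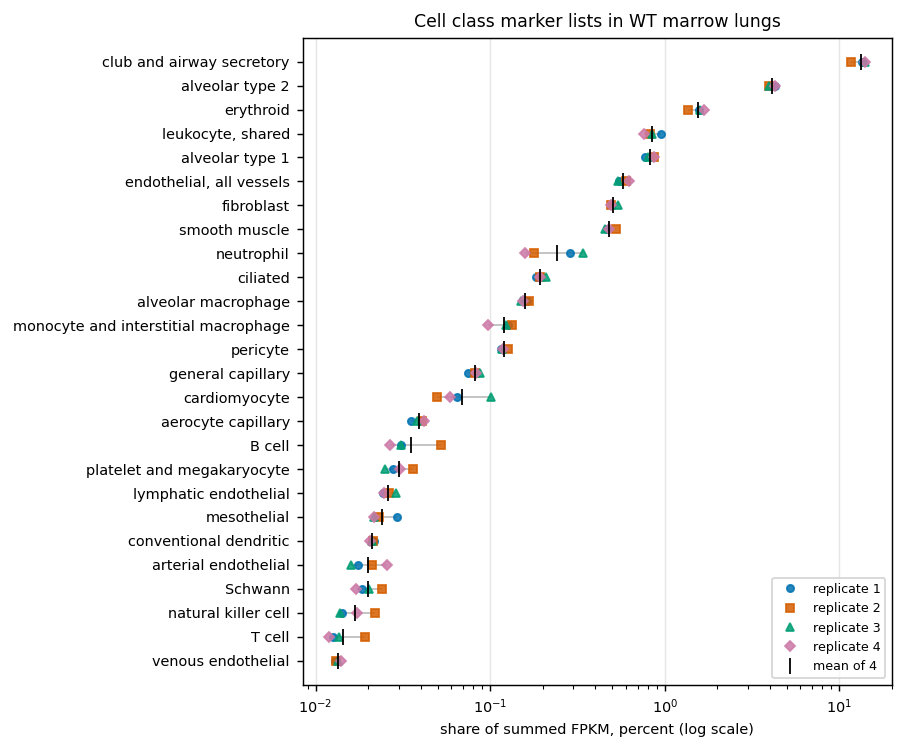
Share of all FPKM, in percent on a log axis, held by each class list with a mean of at least 0.01%, with 1 point per library, the range as a grey line and the mean as a black tick. Club and airway secretory genes lead at 13.3%, and the neutrophil, cardiomyocyte and B cell lists span more between libraries than their neighbours.

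Within the epithelium, club and airway secretory genes held 13.3% (11.7 to 14.1), apart from type 2 cells at 4.12% (3.94 to 4.30), which in turn stood apart from type 1 cells at 0.827% (0.775 to 0.870). Cyp2f2, a cytochrome P450 of club cells, was steady at 788 to 889 FPKM, and Scgb3a2, a secretoglobin of the distal airway, at 996 to 1245. In scaled reads both were highest in replicate 3, as most members of the list were. The secretory genes of the larger airways were higher there by a wider margin. Scgb3a1 stood at 577, 554, 1646 and 514 FPKM, and Bpifa1, a secreted defence protein of the upper airway, at 287, 343, 2386 and 254 scaled reads. In both, replicate 3 was far above the other libraries, which lay close together. The same was seen for Bpifb1, related to Bpifa1 (314 to 385 scaled reads against 985 in replicate 3), and for the antimicrobial lectin Reg3g (597 to 698 against 2353). Of 13 members of the list with at least 100 scaled reads, 11 were highest in replicate 3, where 17.0% of all 9682 genes at that level were.

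Sftpb, needed for the surfactant film, stood at 2156, 2140, 1953 and 2328 FPKM, Sftpa1 and Sftpd, the collectins of surfactant, at 1056 to 1285 and 807 to 960, and Cxcl15, a chemokine of lung epithelium, at 709 to 1035. All 16 type 2 markers reached an FPKM of 1 in all libraries, as did all 12 type 1 markers. After Ager came Hopx, a transcriptional cofactor of type 1 cells, at 1202 to 1437 FPKM, Emp2, a membrane protein, at 471 to 524, and Cldn18, a tight junction claudin, at 376 to 450. Ciliated cell genes held 0.194% (0.183 to 0.209). Of 12 members with at least 100 scaled reads, 10 were highest in replicate 3, against 17.0% of all genes at that level. Sec14l3, a lipid transfer protein, gave 47.9% of that list and stood at 605 to 633 FPKM, followed by Tppp3, a tubulin-binding protein, at 300.3 to 398, and by Dynlrb2 and Tmem212 at 48.7 to 64.7 and 45.2 to 66.5.

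The rarer epithelial classes held small shares. Goblet cell genes held 0.00618%, and basal cell genes 0.000155% with none of the 6 members at an FPKM of 1 in all libraries: Krt14, Aqp3, Ngfr and Trp63 averaged 0.169 to 0.257 FPKM. Among neuroendocrine genes only Calca, the precursor of calcitonin gene-related peptide, reached 1 FPKM in all libraries, with 1.30 to 2.22, and Resp18, Scg5 and Chgb did not. The goblet share was 0.0109% in replicate 2 and 0.00682% in replicate 3 against 0.00327 and 0.00376% in replicates 1 and 4. In replicate 2 it was led by Agr2, a disulfide isomerase of mucus-making cells of the airway and the gut, at 55.2 FPKM against 12.2 to 14.7 elsewhere, and the intestinal genes were highest in this library too. In replicate 3 the lead was Tff2, a trefoil peptide, at 20.7 FPKM against 7.08 to 7.76, and Gp2. Without Agr2 the goblet share was 0.00240%.

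Mesenchymal genes varied little as a whole, with a CV of 2.68%. Fibroblast genes (0.505%, 0.493 to 0.539) and smooth muscle genes (0.482%, 0.454 to 0.528) overlapped. Inmt, a methyltransferase abundant in lung, and Mfap4, a microfibril protein, led the fibroblast list at 824 to 1094 and 720.3 to 815 FPKM, followed by Col3a1 and the proteoglycan Ogn. Acta2, smooth muscle actin, stood at 1137, 1093, 972 and 988 FPKM, Tagln at 760.4 to 896, Myl9, a myosin light chain, at 473 to 489.7, and the intermediate filament gene Des at 168 to 201. The pericyte list held 0.119% (0.116 to 0.126) and was led by Postn, periostin, which fibroblasts also make, followed by Cox4i2 and Higd1b, both known from pericytes, and Gucy1b3.

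The mesothelial list held 0.0240%, with 0.0295% in replicate 1 and 0.0217 to 0.0232% in the others. All 5 of its members with at least 100 scaled reads were highest in replicate 1, against 30.7% of all genes at that level. Msln, mesothelin, stood at 30.2, 13.2, 8.81 and 10.4 FPKM in replicates 1 to 4, while Upk1b and Nkain4, the highest members, differed less (45.5 to 55.9 and 42.6 to 57.6). Of the chondrocyte list, Matn1, Col9a1 and Col9a2 were at 0 in all 4 libraries, and Hapln1 gave 97.3% of its 0.000204%. Of the Schwann cell list Scn7a, a sodium channel that other lung cells may express, gave 97.7%, and Gfra3 averaged 0.341 FPKM, so the list's 0.0200% says little of these cells.

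Endothelial genes common to all vessels held 0.578% (0.543 to 0.625). Pecam1, an adhesion molecule of endothelium, was among the steadiest genes at 319, 324, 315 and 303 FPKM. Cldn5, the endothelial claudin, ranged from 284 to 417, Icam2 from 319 to 389 and Egfl7 from 279.7 to 342. Calcrl, the receptor subunit for adrenomedullin and calcitonin gene-related peptide, was the highest of the list on average and the least steady, at 555, 534, 252 and 437 FPKM, with replicate 3 the lowest. Of the 26 markers 12 were highest in replicate 4, where 27.8% of all genes at that level were. Eng, the TGF-beta co-receptor endoglin, stood at 57.9 to 61.7 FPKM in replicates 1 to 3 and at 87.4 in replicate 4.

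The ranges of the capillary classes did not meet. General capillary genes held 0.0819% (0.0750 to 0.0870) and were led by Gpihbp1, which anchors lipoprotein lipase, at 228 to 275 FPKM, then Sema3c, Cd93 and Plvap. Aerocyte genes held 0.0390% (0.0354 to 0.0416), led by the carbonic anhydrase Car4 at 114 to 137 FPKM, then Tbx2, Apln and Fibin. Aplnr, the apelin receptor of general capillary cells, stood at 282, 355, 1819 and 324 scaled reads: replicate 3 was far above the rest, which lay close together. Arterial genes held 0.0200% with 0.0256% in replicate 4 against 0.0161 to 0.0210%, led by the connexins Gja4 (40.1 to 80.1 FPKM) and Gja5, then Hey1 and Efnb2. Venous genes held 0.0134% (0.0130 to 0.0140), led by Vwf, von Willebrand factor, at 27.8 to 41.7 FPKM, then Car8, Prss23 and Selp, and lymphatic genes 0.0262% (0.0245 to 0.0290), led by Ccl21a and Lyve1, then Mmrn1 and Flt4.

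Genes shared by leukocytes held 0.846% of FPKM, with 0.947, 0.828, 0.844 and 0.765% in replicates 1 to 4. Lyz2 gave 81.4% of it and stood at 5456, 4076, 4492 and 4180 FPKM. Type 2 cells also make it, and without it the leukocyte compartment held 0.776%. Of the 11 shared genes 9 were highest in replicate 1 and 9 were lowest in replicate 4, where 30.7% and 30.6% of all genes were. Cd52, a surface glycoprotein of lymphocytes and monocytes, showed it at 243, 222, 192 and 143 FPKM, and Tyrobp, a signalling adaptor of myeloid cells, at 229, 155, 191 and 133. Ctss and Coro1a were lowest in replicate 4 as well. Across all 67 leukocyte markers with at least 100 scaled reads, 42 were lowest in that library.

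Neutrophil genes varied most among the abundant leukocyte classes, at 0.286, 0.179, 0.339 and 0.159% of FPKM. S100a8 and S100a9, the calprotectin chains of neutrophils, stood at 739, 336, 866 and 286 and at 435, 207, 531 and 169 FPKM. Replicates 1 and 3 were above replicates 2 and 4 for both, without overlap. Retnlg, a resistin-like protein of neutrophils (196, 109, 170 and 111 FPKM), and the cytokine Il1b (34.8, 19.9, 45.6 and 10.1) were split the same way. Lcn2, which epithelium makes too, was closer, at 265 to 358. Each of the 12 neutrophil genes with at least 100 scaled reads was highest in replicate 1 or 3 and lowest in replicate 2 or 4. Of all genes at that level, replicates 1 and 3 were highest in 30.7 and 17.0%, and replicates 2 and 4 lowest in 28.3 and 30.6%. The pairs of libraries were read from these same values, so the count is a description only. Retnla, above, was also higher in replicates 1 and 3 than in the others.

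Macrophage genes were steadier. Alveolar macrophage genes held 0.158% (0.149 to 0.167), led by Chi3l3, a chitinase-like protein (493 to 602 FPKM), Krt19, a keratin that epithelium shares, Ear2, an eosinophil-type ribonuclease, and Ctsk. Monocyte and interstitial macrophage genes held 0.126, 0.133, 0.124 and 0.0976%, and 11 of 12 were lowest in replicate 4, against 30.6% of all genes. They were led by Apoe at 264 to 315 FPKM and by Plac8, a protein of monocytes, at 141, 154, 142 and 88.7, and the complement chains C1qb and C1qa followed. Csf1r, the receptor for macrophage colony-stimulating factor, stood at 642 scaled reads in replicate 4 against 926 to 968. Conventional dendritic cell genes held 0.0211% (0.0204 to 0.0217), led by Naaa, Ccl17, Mgl2 and Ccr7. The plasmacytoid share of 0.00668% rested on Cox6a2, which muscle also makes, and on Klk1, a kallikrein at 44.0 FPKM in replicate 2, 12.8 in replicate 4 and 1.23 and 1.77 in the others, the order of libraries of the intestinal genes. Siglech, the defining gene of these cells, was at 1.77 to 2.27 FPKM, followed by Ccr9.

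Lymphocyte genes were highest in replicate 2. B cell genes held 0.0521% there and 0.0266 to 0.0310% in the other libraries. All 9 with at least 100 scaled reads were highest in replicate 2, against 24.4% of all genes at that level. Cd79a and Cd79b, the signalling chains of the B cell receptor, stood at 68.6 and 76.1 FPKM in replicate 2 against 37.8 to 47.5 and 41.8 to 54.2, and Cd37 and Ms4a1, the CD20 gene, followed. T cell genes held 0.0193% in replicate 2 against 0.0120 to 0.0136%, with Ms4a4b at 29.1 FPKM against 17.9 to 20.9, then Thy1, Cd3g and Lat. Natural killer cell genes held 0.0218% against 0.0138 to 0.0172%, with Nkg7 at 17.9 FPKM against 8.93 to 12.3, Ccl5 and Gzma (24.5 to 33.0) the highest and Klrd1 next. Gut wall carries lymphoid tissue of its own, and the intestinal genes were highest in replicate 2 as well. Replicate 4, next highest in the intestinal genes, held 0.0266% for B cell, 0.0120% for T cell and 0.0172% for natural killer cell genes. A link between the intestinal and the lymphocyte values was not tested. Plasma cell genes held 0.00363%, led by Igj, the immunoglobulin joining chain, Pou2af1 and Eaf2. The other granulocyte lists were low, with 0.00122% for mast cells and basophils (Cma1, Cpa3, Cd200r3 and Fcer1a led, and Tpsab1 was at 0 in all libraries) and 0.000531% for eosinophils, led by Ccr3, Prg2, Il5ra and Prg3, in which Epx, eosinophil peroxidase, had 0.994 scaled reads in replicate 1 and 0 elsewhere.

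Erythroid genes held 1.57, 1.36, 1.6 and 1.68% of FPKM, the next class after type 2 cells. Beta-s stood at 7351, 5426, 6979 and 7177 FPKM and Hbb-b1 at 1435 to 1689. The alpha globin copies Hba-a1 and Hba-a2 are near identical, and how reads were divided between them is not given in the sources used here. Hba-a1 was at 311, 852, 752 and 874 FPKM and Hba-a2 at 1323, 318, 744 and 864. The level of each copy alone is uncertain. Their sum was 1634, 1170, 1496 and 1738 FPKM and was lowest in replicate 2, as Beta-s was. Alas2, the erythroid enzyme that starts haem synthesis, stood at 125 to 152 FPKM. Platelet genes held 0.0299% (0.0251 to 0.0363), led by the platelet chemokines Pf4 (64.6 to 72.3 FPKM) and Ppbp (41.6 to 75.5), then Tubb1 and Gp9, and 6 of 6 members with at least 100 scaled reads were lowest in replicate 3, against 19.3% of all genes at that level.

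Lists of tissues outside the lung parenchyma were low and differed between libraries. Genes of heart muscle, which in the mouse also sheathes the pulmonary veins, held 0.0645, 0.0497, 0.102 and 0.0587%, and 8 of 9 were highest in replicate 3, against 17.0% of all genes, and 8 of 9 lowest in replicate 2, against 28.3%. Myl7, the atrial myosin light chain, stood at 94.6, 48.5, 126 and 76.1 FPKM. Actc1, cardiac actin, was at 92.9 to 141, and Tnnt2 and Myl4 were highest in replicate 3 too. Fat cell genes held 0.0160% in replicate 3 and 0.00232 to 0.00579% in the others, led by Cfd, adipsin, at 16.2, 17.3, 46.3 and 5.83 FPKM and by Car3 at 18.0, 12.8, 44.6 and 5.89, with Retn and Adipoq, adiponectin, highest in the same library. Skeletal muscle genes (0.00344%, led by Tnnt3, Ckm, Myl1 and Mylpf, with Pvalb at 0), squamous epithelium (0.00165%, led by Sprr1a, Krt10, Krt1 and Krt4, with Krt13 and Sprr3 at 0), hepatocytes (0.000303%, Apoa2, Ttr, Alb and Serpina1a, with Apoa1 and Fgb at 0), thymocytes (0.000133%, Themis, Dntt, Ptcra and Rag1, with Rag2 at 0) and thyroid (0.000109%, Slc5a5, Tg and Tshr) held small shares.

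Of the pathway lists, secretoglobins (12.5%, 10.9 to 13.2) and cytosolic ribosomal proteins (10.8%, 10.3 to 11.6) came first and overlapped. Within each library secretoglobins were the higher, most narrowly in replicate 2 (10.94 against 10.89%). Surfactant and lamellar body genes held 3.85% (3.67 to 4.02), actin, tubulin and translation genes 3.51% (3.40 to 3.61), the nuclear-encoded respiratory chain 2.31% (2.25 to 2.39) and matricellular proteins and proteoglycans 2.01% (1.87 to 2.12), each apart from the next. Pathway lists can share genes with each other and with the classes, so their shares do not add up. None of the 13 genes encoded on mitochondrial DNA was found under its symbol in the tables, and they are in no total. In scaled reads 22 of the 37 lists with a value differed from their FPKM share by more than 1.5-fold.

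**Figure D3:**
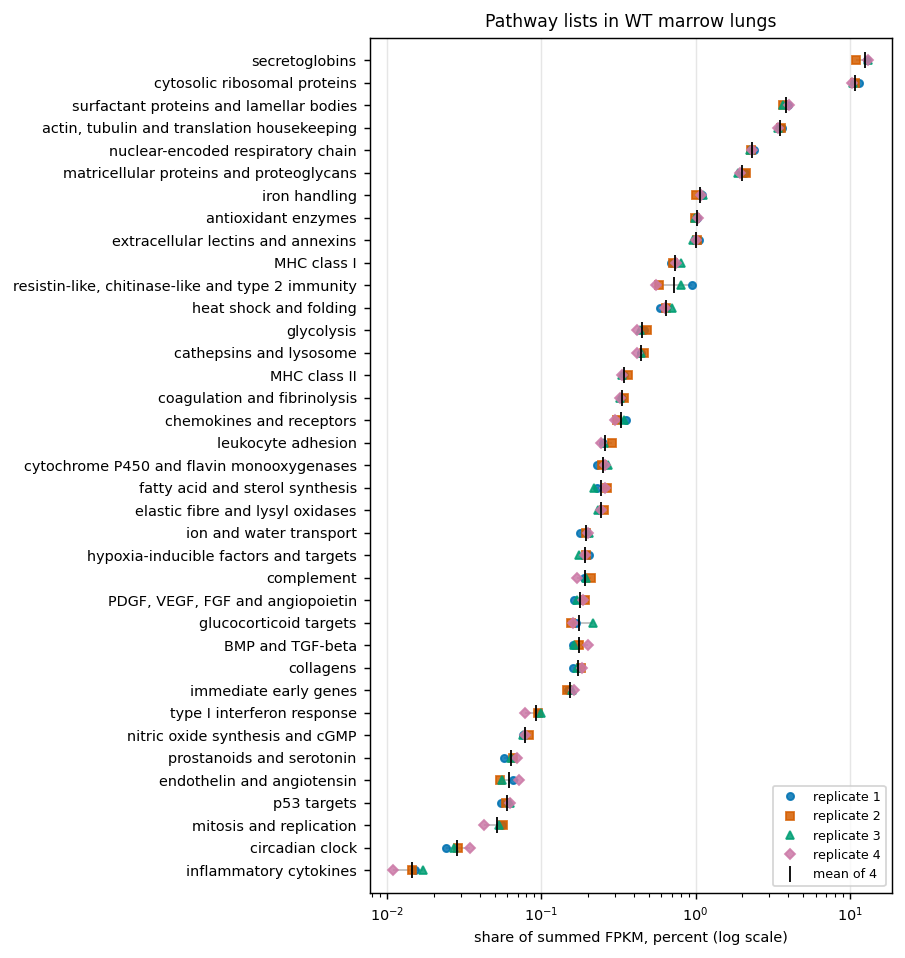
Share of all FPKM, in percent on a log axis, of the 37 pathway lists with a value, with 1 point per library, the range as a grey line and the mean as a black tick. Secretoglobins and ribosomal proteins lead at over 10%, and the resistin-like and chitinase-like list spans from 0.556 to 0.945%.

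The nitric oxide and cGMP genes together held 0.0783% (0.0763 to 0.0825) of FPKM, and the synthases themselves were a small part of it. Nos3, the endothelial synthase on chromosome 5 (24364810 to 24384474), stood at 5.20, 5.39, 5.55 and 6.30 FPKM, rank 8965. Nos2, the inducible synthase on chromosome 11 (78920787 to 78960254), stood at 2.76, 3.63, 2.80 and 3.25 FPKM, rank 10834. The ranges of these did not overlap. Nos1, the neuronal synthase, was listed at 0 in all 4 libraries. The proteins around the synthases were far higher: Nostrin, which traffics the endothelial enzyme, stood at 86.4 to 99.5 FPKM and Ddah2, which breaks down the inhibitor asymmetric dimethylarginine, at 75.1 to 96.8.

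Downstream of nitric oxide, both subunits of soluble guanylate cyclase were well above the synthases, with Gucy1b3 at 70.8 to 84.0 FPKM and Gucy1a3 at 49.2 to 59.3. Pde5a, the phosphodiesterase that breaks down cGMP, stood at 31.5 to 37.1. The natriuretic peptide receptors Npr1 (15.9 to 21.7) and Npr2 (12.2 to 16.8) also make cGMP. Arg1, arginase 1, which competes for arginine, varied widely at 37.2, 16.7, 17.7 and 8.52 FPKM, while Asl, which remakes arginine, and Ddah1 were steady at 15.5 to 19.3 and 15.8 to 17.7. The largest values of the list thus lay in the regulators and in the cGMP arm and not in the synthases.

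The endothelin and angiotensin genes held 0.0614% (0.0540 to 0.0712). Ace, the angiotensin-converting enzyme of lung capillaries, gave 53.8% of it at 219, 171, 214 and 269.9 FPKM. Edn1, the endothelin precursor, stood at 130, 48.3, 26.5 and 59.9 FPKM, a wide spread with replicate 1 highest and replicate 3 lowest. Ece1, its converting enzyme, was at 46.7 to 65.1, and the receptors Ednrb and Ednra at 18.8 to 23.5 and 14.5 to 20.3. Their ranges met, so the receptors were not apart. Ren1, renin, had 0.935 scaled reads in replicate 2 and 0 elsewhere. Among prostanoid and serotonin genes (0.0639%), Hpgd, which breaks down prostaglandins, led at 151 to 187 FPKM, before Ptgis, prostacyclin synthase (78.0 to 104), the transporter Slco2a1 (68.4 to 98.8) and Ptgs1.

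Genes of the hypoxia-inducible factors and their targets held 0.192% (0.177 to 0.203). Epas1, which encodes HIF-2 alpha and is high in endothelium, stood at 198, 152, 218 and 248 FPKM and Hif1a at 29.7 to 32.5, so that the ranges were apart. Of the targets, Vegfa, the endothelial growth factor, was at 154 to 204, the mitophagy genes Bnip3 and Bnip3l at 119.7 to 146 and 100.1 to 119. Some targets were not steady. Ankrd37, an ankyrin repeat protein induced in hypoxia, stood at 152, 79.3, 14.7 and 49.7 FPKM, with the same order of libraries as Edn1 except between replicates 2 and 4. Bhlhe40 (42.2, 34.7, 19.1 and 41.9), Ier3 (333, 177, 102 and 222) and Calcrl, picked out after their values were seen, were also highest in replicate 1 and lowest in replicate 3. Of 24 members with at least 100 scaled reads 12 were highest in replicate 1, against 30.7% of all genes at that level.

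Glycolytic genes held 0.449% (0.417 to 0.482), and 13 of 18 were lowest in replicate 4, against 30.6% of all genes. Aldoa, aldolase, stood at 661 to 733 FPKM, Ldha, lactate dehydrogenase, at 588, 503, 491 and 447, and Gapdh at 546, 486, 474 and 447, followed by Pkm2. Antioxidant enzymes were the steadiest pathway list, with a CV of 1.91% around 1.01%. Gpx3, the secreted glutathione peroxidase, led at 1463 to 1922 FPKM, followed by Gpx1, Gpx4 and Prdx6, which was at 489 to 509.5. Iron genes held 1.07% (1.01 to 1.12), led by the ferritin chains Fth1 (2172 to 2912 FPKM) and Ftl1, by Hp, haptoglobin (1011 to 1296), and by Trf, transferrin, at 818, 581, 777 and 504. Hp and Trf were higher in replicates 1 and 3 than in 2 and 4, as the neutrophil genes were.

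Matrix genes were led by matricellular proteins. After Mgp came Sparc (1981 to 2455 FPKM), the proteoglycan Bgn (597 to 783) and Sparcl1 (525 to 650.5). Collagens held 0.173% (0.160 to 0.183), and 13 of 22 were highest in replicate 4, against 27.8% of all genes. Col3a1 stood at 298, 293, 281 and 236 FPKM and Col4a1, of basement membrane, at 189.6, 183, 193 and 240. Thus Col3a1 was lowest and Col4a1 highest in replicate 4. Col1a2 and Col4a2 were the next highest chains. Other chains differed from these. Col5a1 was highest in replicate 4 (666 scaled reads against 525 to 540) and Col4a5, also of basement membrane, in replicate 2 (1285 against 934 to 987). Elastic fibre genes held 0.243%, with Eln, elastin, at 322, 320.4, 236 and 272 FPKM after Mfap4, and Mfap5 and Efemp1 next.

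The BMP pathway, whose receptor gene Bmpr2 is the main gene of heritable pulmonary hypertension, held 0.174% together with TGF-beta genes (0.160 to 0.199). Its target genes were highest: Id3 stood at 200.5, 205, 206 and 263 FPKM, Id1 at 131, 119.6, 125 and 199 and Id2 at 109.5 to 169. In Id1 and Id3 replicate 4 was above the others, which lay close together, and the same library was highest in Eng. Acvrl1, the endothelial BMP receptor, followed at 118 to 141 and Tgfbr2 at 95.4 to 119. Among growth factors (0.177%), Nrp1, the co-receptor for VEGF and semaphorins, stood at 152 to 169 FPKM, Pdgfa at 109 to 133 and the angiopoietin receptor Tek at 65.3 to 73.9.

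MHC class I genes held 0.737% (0.692 to 0.798), led by B2m, H2-K1 (608 to 707 FPKM), H2-D1 (426 to 565) and H2-T23, and class II genes 0.344% (0.333 to 0.363), led by Cd74 (958 to 1053), H2-Aa (492 to 685), H2-Ab1 and H2-Eb1. The resistin-like, chitinase-like and type 2 list held 0.722%, with 0.945, 0.582, 0.806 and 0.556% in replicates 1 to 4. Retnla gave 71.6% of it, Chi3l3 and Chi3l1 stood at 493 to 602 and 394 to 487 FPKM, and Il13 was at 0. Complement genes held 0.191%, led by Serping1, the C1 inhibitor (431 to 474), C3 and C1qb. Of 20 complement genes 15 were lowest in replicate 4, against 30.6% of all genes. Chemokines and receptors held 0.327% (0.300 to 0.355), of which Cxcl15 was the largest, then Ccl6 (185 to 269.7 FPKM), Cxcl12 (169 to 178) and Cxcl17.

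Inflammatory cytokines were the lowest pathway list, at 0.0144% (0.0109 to 0.0170), with 7 of 17 at an FPKM of 1 in all libraries. After Il1b came Il18, Tnfsf10 and Csf1, and Il6 stood at 12.1, 7.88, 14.8 and 3.85 FPKM, highest in the same libraries as S100a8. Interferon response genes held 0.0918% (0.0788 to 0.0991), led by Ifi27l2a (116 to 194 FPKM), Bst2 (126 to 154), Isg15 and Irf9. Adhesion genes held 0.259%, led by Itgb1, Icam2, Pecam1 and Icam1 (204 to 255). Coagulation genes held 0.331%, led by Anxa2, S100a10, Thbd, thrombomodulin (173 to 226), and Serpine2. Cathepsin and lysosome genes held 0.441%, led by Ctsd (347 to 376 FPKM), Npc2, Lamp1 and Psap.

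Most genes of 2 housekeeping processes, translation and respiration, were highest in replicate 1. Of 77 ribosomal protein genes with at least 100 scaled reads, 75 were highest in replicate 1, against 30.7% of all genes, and of 77 respiratory chain genes 64 were. Rplp1, a protein of the ribosomal stalk, stood at 2935, 2271, 2380 and 2408 FPKM, and Cox6c, a subunit of cytochrome oxidase, at 617, 513, 515 and 543. Cox6a1, Ndufa4 and Atp5e behaved alike. All 10 lectin and annexin genes, S100a11, Anxa2, S100a6 and Lgals1 first, were also highest there. Genes were cut into 5 equal groups by their reads per FPKM, which rises with transcript length. In the group of the shortest transcripts the median log2 deviation from the mean of the libraries was 0.10 in replicate 1 and -0.08 in replicate 2, and in the group of the longest -0.05 and 0.04. Most ribosomal and respiratory chain transcripts are short, and the part of length in their values was not tested. Heat shock genes held 0.640% and 13 of 23 were highest in replicate 3, against 17.0% of all genes. Hspa8 led at 952 to 1187 FPKM, then Hsp90ab1, Hspa5 and Calr, and the inducible Hspa1a and Hspa1b stood at 304 and 403 scaled reads in replicate 3 against 61.8 to 93.6 and 55.6 to 125.

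As summed shares, glucocorticoid target and clock genes differed more between libraries than immediate early genes, with CVs of 16.3, 15.3 and 4.93%. Their single members were less unlike. The median CV of members with at least 100 scaled reads was 28.6, 21.3 and 18.6%, against 9.20% over all genes at that level. Glucocorticoid targets held 0.168, 0.155, 0.217 and 0.159%, and 11 of 13 were highest in replicate 3, against 17.0% of all genes. Tsc22d3, a glucocorticoid-induced leucine zipper protein, stood at 115, 130, 245 and 151 FPKM, and the metallothioneins Mt1 and Mt2 at 104 to 157 and 70.9 to 159. Clock genes held 0.0240, 0.0286, 0.0271 and 0.0344%. Nr1d1, a clock repressor, stood at 12.9 FPKM in replicate 2 and 32.3 in replicate 4, the lowest and the highest, and Dbp, a clock output gene, at 75.9 to 86.7 scaled reads against 158 in replicate 4, and Tef and Nr1d2 were also highest in that library. The hour of sampling is not given in the labels. Immediate early genes held 0.154% (0.146 to 0.163), led by Ier3, Klf2, Jund and Klf6.

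Genes of cell division held 0.0555, 0.0565, 0.0530 and 0.0423%, and of 18 members with at least 100 scaled reads 17 were lowest in replicate 4, against 30.6% of all genes. Pcna, the clamp of DNA polymerase, stood at 152, 132, 144 and 119 FPKM, and the replication genes Mcm7 and Mcm6 at 13.2 to 17.1 and 12.5 to 15.8, with Rrm1 near them. The p53 targets held 0.0596%, with Cdkn1a, the p21 inhibitor, at 88.8 to 118 FPKM, then Fas, Bax and Phlda3. Fatty acid and sterol genes held 0.244% (0.221 to 0.267), led by Scd1, a desaturase that type 2 cells use for surfactant lipid (427 to 556 FPKM), Elovl1, Scd2 and Fdps. Monooxygenases held 0.251%, led by Cyp2f2, Cyp4b1 (223 to 280.1), Fmo2 and Cyp2b10. Ion and water transport genes held 0.194%, led by the water channel Aqp1 of endothelium, at 361, 362, 362 and 344 FPKM, Aqp5 of type 1 cells (132 to 216), Atp1b3 and Atp1b1.

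The spread over the libraries was small for most genes. Over the 9682 genes with a mean of at least 100 scaled reads the median CV was 9.20%, where counting alone would give 5.24%, and 10% of them lay above 17.8%. It was 19.8% for genes with 10 to 100 scaled reads, near the 15.3% of counting, and 7.63% for those with 1000 to 10000, where counting gives 2.41%. A CV above 50% was found for 52 of the 9682 genes. On FPKM, any 2 libraries were within 1.2-fold of each other for 62.3 to 75.1% of the 13196 genes with a mean FPKM of at least 1. The share was lowest for replicates 1 and 4 and highest for replicates 1 and 3.

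**Figure D4:**
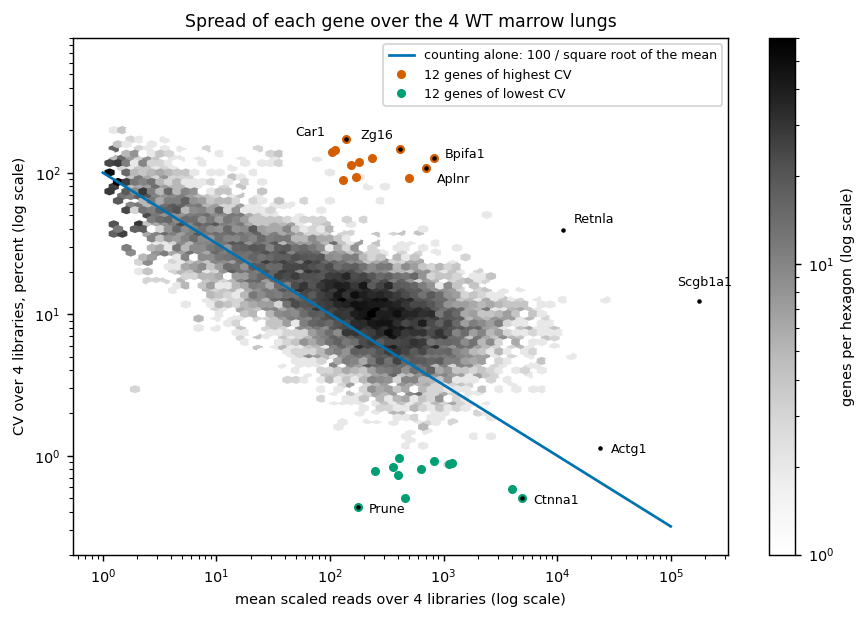
CV over the 4 libraries against the mean in scaled reads, both on log axes, for genes with a mean of at least 1, as hexagons shaded by the number of genes, with the CV of counting alone as a line. The 12 genes of highest CV lie between 89.3 and 173%, and the 12 of lowest CV under 1%.

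The most variable genes were mostly highest in replicate 2 or 3. Among 8169 genes with at least 100 scaled reads and an FPKM of 5, the 12 with the highest CV included 6 of the intestinal list: Car1, a carbonic anhydrase of the colon (CV 173%), Zg16, a lectin of goblet cell granules (146%), Slc26a3, the chloride exchanger of the colon (144%), Lgals4 (126%), Muc13 (118%) and Clca3 (91.2%), a protein of mucus cells. Zg16 stood at 35.8, 1296, 13.8 and 306 scaled reads and Slc26a3 at 21.9, 347.5, 3.94 and 71.8. The intestinal list was written after these values were seen, so its 6 genes among the 12 are no separate support for it. In each of the 6, replicate 2 was highest and replicate 4 next. Sycn, a secretory granule protein on neither the intestinal nor the pancreas list, had the same order at 4.97, 316, 6.90 and 90.7. The others were Bpifa1, Aplnr, Hspa1a and Hspa1b, all highest in replicate 3, and Eif3j, a translation factor subunit, at 311, 289, 5.57 and 2.11 scaled reads. Eif3j has a near-identical copy in the mouse genome, so its division of the libraries into high and low is uncertain.

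At the other end, Prune, a phosphodiesterase, stood at 175.9, 176.1, 174.4 and 175.8 scaled reads, a CV of 0.434%. Rab33b, Ctnna1, Tspan7, Cog3, Nrm, Slc35f5, Upf2, Txnl4a, Magi3, Sltm and Pvrl2 completed the 12 with the lowest CV, all under 1% and under the CV that counting alone would give. Ctnna1, alpha catenin of cell junctions, was at 4876 to 4932 scaled reads, and Tspan7, a tetraspanin that endothelium expresses, at 3975 to 4032. Among the 30 highest genes the cytoplasmic actin Actg1 was the steadiest, with 1669, 1706, 1666 and 1689.9 FPKM and a CV of 1.14%.

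Over all 9682 genes replicate 3 was the library least often at an extreme. Among lists with a mean share of at least 0.005%, those farthest in any library from their own mean were the added intestinal list, then fat, goblet, plasmacytoid, neutrophil, heart muscle and B cell genes. Y-linked genes were present in all 4 lungs, with Ddx3y at 1264 to 1518 scaled reads, and Xist, the transcript of the inactive X chromosome, stood at 25.8, 102, 29.6 and 89.8. The libraries with more Xist were those with the higher sums of intestinal genes, replicates 2 and 4, and the link between these values was not tested.

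**Figure D5:**
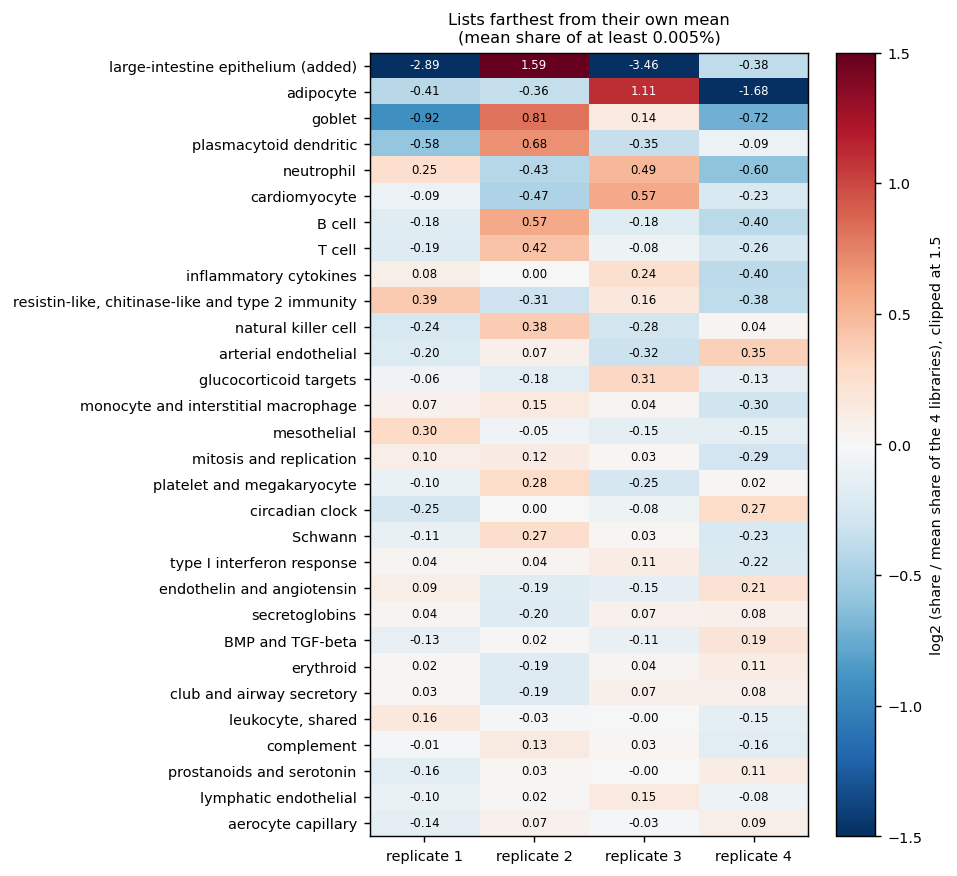
Log2 of the share of a list in a library over the mean share of the 4 libraries, for the 30 lists farthest from their own mean among those with a mean share of at least 0.005%, with the colour clipped at 1.5 and the values written in each field. The added intestinal list runs from -3.46 in replicate 3 to 1.59 in replicate 2, while most of the lists shown stay within 0.4.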

How the data were processed

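Polyadenylated RNA of the 4 WT marrow lungs was read as single ends of 75 bases. Per the submitters' processing notes, CASAVA 1.8.2, TopHat2 2.0.13, Bowtie2 2.2.3, SAMtools 0.1.19 and Cufflinks 2.2.1 were used with mm10. Settings and annotation were not given in the sources used here. Deposited by the authors were a table of FPKM and a table on the scale of read counts, a signal divided by 1 factor per library: multiples of 0.937 to 0.994 gave whole numbers, within 0.05, for 98.8 to 98.9% of values. Intervals and floors cover counting error only.

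Shares are percentages of the summed FPKM without 780 small and ribosomal RNA symbols. CVs use scaled reads of genes with a mean of at least 100. Lists were called apart only where their ranges over the 4 libraries did not meet, and no test was run. Named are the 30 highest genes, the 4 highest members of each list and any at 0 throughout, the NOS genes, the 12 highest and 12 lowest CVs, and members with 1 library apart. Others were chosen after their values were seen, and model identifiers are not named; a few other genes are not reported here. The members and lists were chosen with earlier results of these data known. Groups follow the sample titles, since the design paragraph of the series describes NOS-null donors only. Alternatives included the read scale, other minimums and leaving out each replicate. Other totals were tried for compartments and the highest genes, and the marker of highest FPKM was left out of each compartment. Not planned beforehand were leaving Scgb1a1 out of the total and Agr2, Klk1 and Clca3 each out of its list. The scripts, in Python 3.11.15 with pandas 2.3.3, numpy 2.4.6 and matplotlib 3.10.9, were tested on simulated data.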

Additional observations from a re-analysis of the deposited data

Results flagged for a closer look

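Over the members of the lists and the genes named by their CV, 111 of 1246 genes (8.91%) had 1 library whose gap to the nearest of the others was too large a part of the whole range by Dixon's 95% limit for 4 values, as had 5 of 87 lists. Chance gives about 1 in 20 for groups of normal values, and over all 9682 genes with at least 100 scaled reads the share was 5.45%. For genes with 1 to 10 scaled reads it was 11.4%. The 1246 genes include such low genes and genes chosen by their CV, so their share cannot be set directly against 5.45%. The value in parentheses after a gene is that of the library apart, in scaled reads. Of the lists, fibroblast genes (0.539%) and skeletal muscle genes (0.00453%) were apart in replicate 3, and B cell genes (0.0521%) in replicate 2. The secretoglobins (10.9%) and all class markers together (21.6%) were low in replicate 2. These are FPKM shares. In scaled reads the fibroblast share was 0.734% in replicate 3 and 0.714% in replicate 1. Of 18 fibroblast genes with at least 100 scaled reads, 5 were highest in replicate 3, as many as in replicate 1 and in replicate 4.

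Replicate 1 was apart on the high side in 34 genes. Ribosomal protein genes made up the largest group: Fau (3379), Rpl13 (6941), Rpl15 (3907), Rpl21 (6168), Rpl23 (4543), Rpl27a (4622), Rpl32 (3546), Rpl35 (2289), Rpl37a (2901), Rpl39 (2838), Rpl41 (5034), Rps12 (4977), Rps15 (4168), Rps16 (5149.8), Rps20 (3514) and Rps9 (4764). Of the respiratory chain, Ndufa3 (415), Ndufb11 (1005), Uqcrh (1161), Cox4i1 (1909.7) and Cox6b1 (1079) were high there. Matrix, cytoskeletal and other abundant genes were Mgp (32423), Tmsb4x (31454), S100a10 (1744), Prdx2 (1381) and Magi3 (1197). The values of Magi3 differ by less than counting error, with a CV of 0.886% where counting alone gives 2.86%. Mgp stood at 25253 to 25570.0 in the other libraries. The mesothelial genes Gpm6a (742) and Wt1 (11.9) were high in the same library, as were Ifit3 (498) and Hk3 (52.7), an interferon-induced gene and a myeloid hexokinase. At a few reads stood Myh2 (2.98), Prg3 (1.99), Epx (0.994) and Il10 (0.994). Replicate 1 was low in Zfp36 (503), Proz (2.98) and Upk3a (0.994), of which Zfp36, an mRNA decay factor of the early response, was at 689.8 to 703 elsewhere.

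Replicate 2 was apart on the high side in 18 genes. They include Car1 (492), a carbonic anhydrase of the colon and a member of the added intestinal list, and Agr2 (256), a gene of mucus-making cells. Lymphocyte genes were Cd22 (242), Faim3 (241), Klrk1 (79.6), Prf1 (50.6) and Gzmb (37.5), of B cells and of cytotoxic cells. Genes of red cells were Epb4.2 (26.2) and Ermap (11.2). Col4a5, a basement membrane collagen chain, stood at 1285 against 934 to 987, and Hspb6, a small heat shock protein of muscle, at 137 against 110.3 to 112. At a few reads stood Scg5 (9.37), Dntt (3.75), Serpina1b (1.87), Ren1 (0.935), Col2a1 (0.937), Il17a (0.937) and Lect1 (0.937). It was low in Cyc1 (451), Gsta3 (710.0), Hspb8 (525), Cyyr1 (207) and Htr1b (0). Cyc1, a respiratory chain subunit, was at 603 to 618 elsewhere.

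Replicate 3 was apart on the high side in 19 genes. Secretory and ciliated genes of the airway were Scgb3a1 (3989), Bpifa1 (2386), Reg3g (2353), Bpifb1 (985), Cdhr3 (351) and Tff2 (63.1). Genes of fat and muscle were Adipoq (51.2), Cidec (83.8), Tnnt3 (80.8) and Myh4 (0.985). Of the vessel and stress genes, Aplnr (1819), Hspa1a (304), Nr4a2 (86.7) and Gclc (2526) were high, the last an enzyme of glutathione synthesis. The others were Col8a2 (101), Nid2 (83.8), Cyp2e1 (59.1), Bmp7 (6.90) and Edn2 (6.90). On the low side was Prune (174.4), a gene whose 4 values differ by less than counting error.

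Replicate 4 was apart on the high side in 17 genes and on the low side in 14. High were the BMP and endothelial genes Eng (2366), Id1 (1175) and Id3 (1643), the matrix and pericyte genes Col6a2 (1954), Col5a1 (666), Col7a1 (26.5), Emilin1 (1195) and Cspg4 (565), and Dbp (158), Gaa (505), Zmat3 (155), Edn3 (238) and Xcr1 (39.7). At a few reads stood Ngfr (8.51), Serpina1a (6.62), Elovl3 (0.945) and Krt6a (0.945). Low were genes of leukocytes, Itgb2 (678), Csf1r (642), Cd163 (100.2), Ly6c2 (100.2) and Mmp8 (65.2), of which Itgb2, the integrin chain common to leukocytes, was at 900.2 to 911 elsewhere. The cell division genes Mcm7 (242) and Ccnb2 (66.2) were low in the same library, as were the hypoxia-induced prolyl hydroxylase gene Egln3 (23.6), at 42.1 to 44.7 elsewhere, and Aqp1 (7373), Lum (99.3), Pdgfd (150.3), Nqo1 (65.2), Htr2a (7.56) and Cyp2b19 (0). Of the 111 genes, 67 had a mean of at least 100 scaled reads and 23 a mean under 10, where 1 read can set a library apart.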

How the results depend on the processing

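In scaled reads the share was 6.88% for epithelial, 1.39% for endothelial, 1.51% for mesenchymal, 0.935% for leukocyte and 0.521% for erythroid and platelet genes, 6.89% for the 10 highest genes and 19.9% for the 100 highest. Without its highest marker the epithelial share was 6.26% (Scgb1a1), the endothelial 0.691% (Calcrl), the mesenchymal 0.972% (Acta2), the leukocyte 0.776% (Lyz2) and the erythroid and platelet 0.562% (Beta-s). With Scgb1a1 left out of the total as well, an alternative chosen after seeing the data, they were 7.13%, 0.864%, 1.29%, 1.67% and 1.8%. With every gene in the total the mesenchymal share was 1.09%, and the other compartments moved by less than the spread between libraries. The median CV was 14.7% without a minimum and 9.64% from the SD of log2 values, and 8.03 to 9.63% with 1 replicate left out. Without replicate 3 the fat cell share was 0.00456% and not 0.00741%; leaving out 1 replicate moved every other class, pathway and compartment share, and those of the 10 and 100 highest genes, by less than 1.5-fold. With a minimum of 0.5 FPKM 13555 genes counted as present in all 4 libraries and with 5 FPKM 8769. Of 40 classes 23, and of 37 pathways 22, differed by more than 1.5-fold between the scales, in both directions. Without Agr2 the goblet share was 0.00240%, without Klk1 the plasmacytoid share 0.00431% and without Clca3 the resistin-like list 0.719%. No paired test was run. Lists come from the same libraries but were called apart by their ranges, not by differences within each library. With 4 libraries the spread itself is poorly known, and genes under 10 scaled reads vary about as much as counting alone gives.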
